A study of Mus musculus with 108 samples.

Results

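In the liver of Bmal1-iKO mice, 6 of the 9 libraries taken at ZT6, ZT14 and ZT18 held abundant transcripts of dividing cells and of macrophages, and the other 3 did not. These 6 livers, which carry the numbers 1 and 2 at each of the 3 times, are described here against the 3 livers that carry the number 3. They were picked by measured values, namely their high levels of cell cycle and macrophage genes, so every liver difference between the 6 and the 3 is a description and carries no test. They are 6 of 36 liver libraries and of 108 libraries in the series. ZT is Zeitgeber time, in hours after lights on.

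RNA was measured in 3 tissues (liver, kidney and white fat) of Bmal1-iKO and Bmal1-flox mice, with 3 libraries for each tissue and genotype at each of 6 times. Its title concerns the intestinal clock and rhythmic liver metabolism. All the mice compared here carry the Bmal1-iKO genotype, and the labels describe them as male, of strain C57BL/J, 8 to 12 weeks old, under 12 h of light with unrestricted food and drink. No other allele, treatment or diet is named, and neither the time of the Bmal1 deletion nor the cells that carry it are given in the labels. They also do not say whether the same number at the same time marks the same animal in each tissue, nor that libraries of a group came from separate animals, so the p-values given for kidney and fat measure only the spread between these samples.

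BMAL1, encoded by Arntl, is a transcription factor that pairs with CLOCK and drives the daily cycle of gene expression. Most hepatocytes of an adult liver rest outside the cell cycle and can re-enter it after injury, when they copy their DNA in S phase and then divide in mitosis. Kupffer cells are the resident macrophages of the liver. Interferons are secreted alarm signals of infection, which switch on antiviral genes through transcription factors that include STAT2 and IRF9.

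Total counts of the 9 livers ran from 17160000 to 19475000, within the range of all 36 livers, 14428000 to 23428000. Mitochondrially encoded genes took 2.36% to 3.54% of counts in the 6 livers and 10.01% to 16.6% in the other 3. Hepatocyte markers had a mean log2 level of 9.18 to 10.8 CPM, read counts scaled to library size, in the 6 and of 11.7 to 12.3 in the 3, with albumin, apolipoprotein and transferrin genes detected in all 9. 1 of the 6, number 1 at ZT18, went against its label of male: it held 356 CPM of Xist, which is transcribed from an inactive X chromosome, and 0 of the Y-linked gene Ddx3y, and the kidney and fat libraries of that number and time held 187 and 421 CPM of Xist. Without it 2935 genes were higher and 2345 lower by the rule for standing apart given below, against 2737 and 2130 with it.

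Mki67, the marker of proliferating cells, stood at 37.2 to 49.6 CPM (median 43.00) in the 6 livers and at 3.68, 1.08 and 0.472 at ZT6, ZT14 and ZT18 in the other 3. All 6 livers lay far above all 3 others at each time, and the fitted log2 difference was 4.76 (SE 0.50). Top2a, the topoisomerase that untangles DNA in dividing cells, stood at 22.7 to 34.9 CPM (median 30.8) against 0, 0.997 and 0.315. Its groups did not overlap either, with a log2 difference of 6.25 (SE 0.61). Adgre1, which encodes the macrophage surface protein F4/80, stood at 144 to 349 CPM (median 223) against 5.56, 6.07 and 5.35, a log2 difference of 5.32 (SE 0.31). H19, an imprinted RNA abundant in fetal liver and silent in the adult, ran from 20.4 to 936 CPM with a median of 92.8 in the 6, against 0.562, 0.582 and 1.02. It was the most uneven marker among the 6: the highest H19 value was in number 1 at ZT6 and the lowest in number 2 at ZT14. Arntl, the targeted gene, stood at 3.69 to 24.5 CPM (median 12.8) against 3.68, 18.7 and 14.2, and its groups overlapped, with a log2 difference of 0.26 (SE 0.35).

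**Figure D1:**
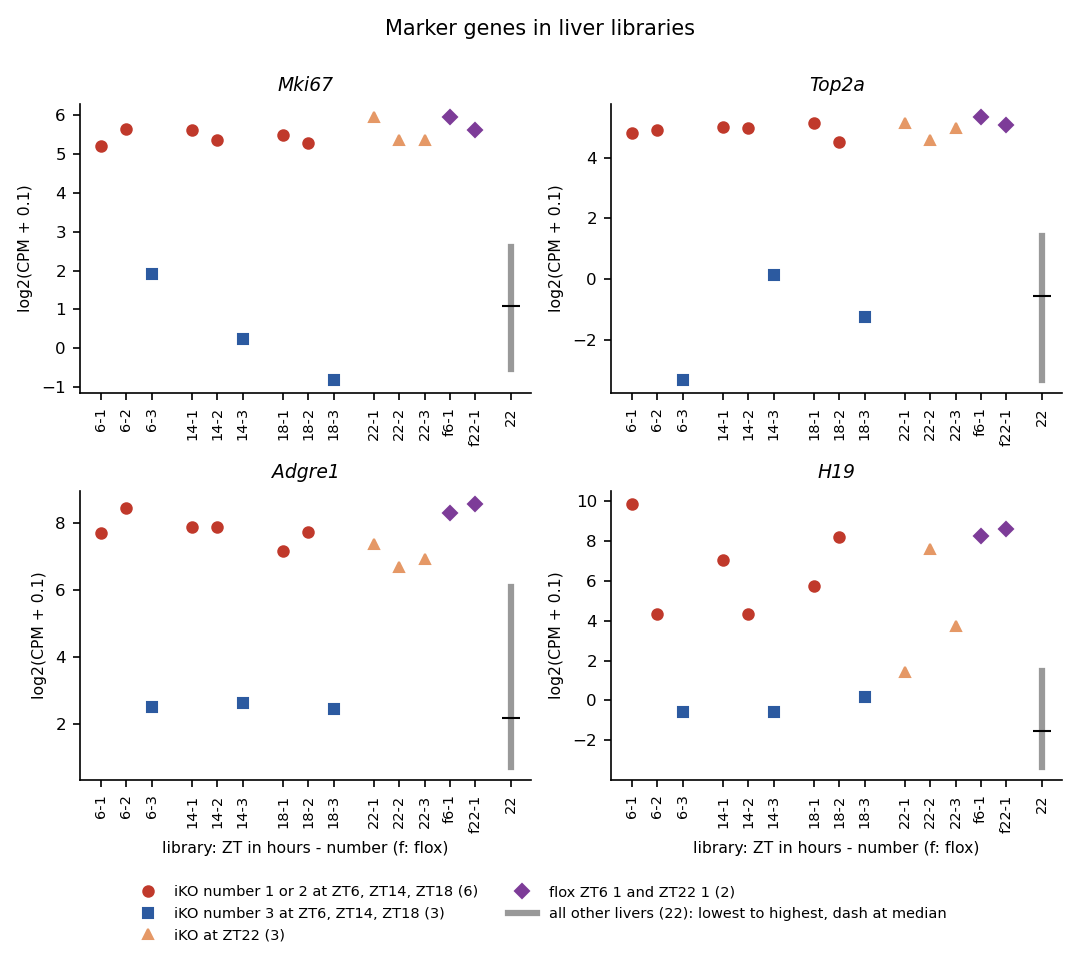
Levels of Mki67, Top2a, Adgre1 and H19 in single liver libraries as log2 of CPM plus 0.1, labelled by ZT in hours and number, with the 6 livers in red, the other 3 in blue, the iKO livers at ZT22 in orange, 2 flox livers in purple, and a bar from the lowest to the highest of the other 22 with a dash at their median. Mki67 lies at 37.2 CPM or more in each of the 6 and at 3.68 CPM or less in each of the 3, and H19 spreads most among the 6.

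Cell cycle genes were higher in the 6 livers from DNA copying through to division. Which cells of the liver held these transcripts cannot be told from bulk RNA. A gene is said here to stand apart when its fitted difference was at least 2-fold and its CPM values in the 6 and the 3 did not overlap. Of 15173 genes tested in liver, 4867 (32.1%) stood apart, 2737 (18%) of them higher and 2130 (14%) lower in the 6, and the median log2 difference of all genes was 0.07. Since the livers were chosen on this contrast, nothing is read from the share of a list against these percentages. Without the number 1 liver at ZT18 the S phase, mitosis, type I interferon and sex-biased counts given below were the same. Leaving out a liver makes no overlap easier to meet, so counts that stay or grow without 1 liver are no check of a result.

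Of 30 S phase genes, 20 stood apart higher and 2 lower, with a median log2 difference of 2.09. Uhrf1, which carries DNA methylation over to new strands, stood at 11.3 to 20.3 CPM (median 15.2) against 0.250, 0.499 and 0.236, a log2 difference of 5.60 (SE 0.34). Mcm5, a subunit of the helicase that opens DNA for copying, stood at 16.7 to 34.4 CPM (median 25.7) against 0.687, 1.08 and 0.629, a difference of 4.97 (SE 0.27). In each of these genes the lowest of the 6 livers was many times the highest of the 3. Gins2, another helicase component, and Cdc6, which loads the helicase, differed by 4.71 and 4.10. Mcm10, a DNA replication factor named after its value was seen, was 1 of the 2 that were lower.

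Of 30 G2 and mitosis genes, all were higher on average in the 6 livers, 28 stood apart and the median log2 difference was 3.72. By time the medians were 3.06 at ZT6, 3.20 at ZT14 and 4.34 at ZT18. Aurka and Cenpa were the 2 that did not stand apart, also named after their values were seen. Hmmr, a spindle protein, stood at 3.67 to 5.40 CPM (median 4.70) against 0, 0.0831 and 0.393, a log2 difference of 4.96 (SE 0.69). Kif23, a motor of the last step of division, stood at 8.58 to 17.3 CPM (median 13.7) against 0.624, 0.582 and 0.315, a difference of 4.73 (SE 0.39). Neither gene reached 1 CPM in any of the 3 livers. Leaving out any 1 of the 9 livers left 28 mitosis genes apart, though no overlap is then easier to meet.

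Cyclin D genes, which move cells out of rest, were among the few regulators of the first phase that stood apart. Ccnd1 stood at 41.4 to 85.2 CPM (median 71.3) against 4.99, 0.748 and 0.944, a log2 difference of 5.09 (SE 0.54), and the groups were far apart. Ccnd2 and Rbl1, a retinoblastoma relative, differed by 3.28 and 3.18. In all, 4 of 19 such genes stood apart, all higher, with a median of 0.51, where 18% of all genes stood apart higher. Of 13 targets of the DNA damage factor p53, 5 stood apart higher with a median of 0.78, led by Ckap2 at 4.77 and Aen at 2.71.

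Promoters of the mitosis genes were searched for known sequence elements. The search used no expression value, so its shares are properties of the gene lists and not of these livers. TTTGAA is the core of the CHR element and CCAAT the site of the factor NF-Y, both known from promoters of genes that peak in G2 and mitosis. In windows from 250 bases before to 50 after each gene's start (RefSeq, GRCm38.p6, both strands), TTTGAA was present for 19 of the 25 mitosis genes found in the table (76.0%) and CCAAT for 20 (80.0%), against 17.9% and 37.4% of all 32851 windows. Counted by gene, since a gene can have several starts, the background was 20.2% and 41.1% of 27025 genes. Of 25 S phase genes, 3 held TTTGAA, 15 held CCAAT and 8 (32.0%) held TTTCCCGC or TTTGGCGC, the E2F sites, which 1.56% of all windows and 1.80% of all genes held. No mitosis gene of the 25 held these E2F letters. The Mki67 and Top2a promoters are shown because these genes mark the 6 livers. They cover the 250 bases before the start on the minus strand, at chr7:135716380-135716629 and chr11:99024190-99024439, printed 5′ to 3′ with matches to either element, on either strand, in capitals.
Mki67: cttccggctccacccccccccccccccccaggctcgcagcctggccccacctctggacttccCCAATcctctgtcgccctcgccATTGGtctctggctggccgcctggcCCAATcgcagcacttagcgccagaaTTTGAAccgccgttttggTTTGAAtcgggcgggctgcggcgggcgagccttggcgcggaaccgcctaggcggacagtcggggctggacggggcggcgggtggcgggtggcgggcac
Top2a: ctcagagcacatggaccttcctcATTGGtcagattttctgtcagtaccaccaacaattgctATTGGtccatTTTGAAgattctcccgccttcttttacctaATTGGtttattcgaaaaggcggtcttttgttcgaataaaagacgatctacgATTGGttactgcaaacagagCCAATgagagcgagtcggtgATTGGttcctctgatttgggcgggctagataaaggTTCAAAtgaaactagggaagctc
The Mki67 stretch holds 2 TTTGAA and 3 CCAAT matches, and the Top2a stretch 2 and 6. A match describes the letters of the promoter and does not show that a factor bound there in these livers.

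Macrophage genes were higher in the 6 livers whether they mark resident or recruited cells. Of 18 markers of Kupffer cells, 17 stood apart, all higher, with a median log2 difference of 3.29. The exception was Clec4f, which is restricted to Kupffer cells and is named after its value was seen: its log2 difference was 2.24 (SE 0.73), and its groups overlapped. Marco, a scavenger receptor that takes up bacteria, stood at 144 to 1216 CPM (median 726) against 2.06, 14.1 and 3.54. The lowest of the 6, in number 1 at ZT6, was still above all 3, and the log2 difference was 7.12 (SE 0.89). Folr2, a folate receptor of resident macrophages, differed by 4.13 (SE 0.51). Cd209f, a lectin, gave 2026 counts in the 6 livers together and 1 in the 3, a ratio of 629 in CPM with a 95% counting interval of 113 to 24865.

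The monocyte markers with the largest differences included genes of inflammatory monocytes. Of 17 markers 14 stood apart, all higher, with a median of 3.74. Chil3, a chitinase-like protein of inflammatory monocytes, stood at 7.31 to 84.7 CPM (median 66.3) against 0, 0 and 0.551. Ly6c2, the surface marker of the same cells, stood at 21.04 to 144 CPM (median 98.2) against 0.499, 1.58 and 0.944. Both genes were near 0 in the 3 livers, and the log2 differences were 8.23 (SE 1.35) and 6.43 (SE 0.79). Itgam, the integrin CD11b, and Ms4a7, found on recruited macrophages, differed by 6.53 and 5.92. In bulk tissue, more cells of a type and more RNA per cell cannot be told apart.

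Markers of other white cells differed less evenly between lists. Of 14 neutrophil markers 9 stood apart higher, with a median of 3.31. Mmp9, a protease of neutrophil granules, stood at 4.90 to 21.4 CPM (median 14.4) against 0.250, 1.83 and 0.944, a difference of 3.53 (SE 0.72). Of 18 T and NK cell markers, 6 stood apart higher, and 10 or 11 did without number 3 at ZT14 or number 1 at ZT18. They were led by the granzymes Gzma at 4.20 and Gzmb at 3.90, which kill target cells. The T and NK median was 3.95 at ZT6, 1.18 at ZT14 and 0.94 at ZT18. Of 13 B and plasma cell markers 2 stood apart higher, with a median of 1.29, where 18% of all genes did. Without number 3 at ZT18, 5 of these markers did. Cr2, the complement receptor of B cells, was 1 of the 2, at 15.2 to 169 CPM (median 94.8) against 0.187, 0.166 and 1.02. The B cell markers Cd79a, Cd79b and Pax5 overlapped. Of 16 erythroid markers 6 had counts enough to test, and the 2 that stood apart were lower in the 6: the red cell factor Klf1 and the heme enzyme Alas2, at -2.63 and -2.54.

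Interferon-stimulated genes were higher almost throughout. Of 32 type I interferon-stimulated genes, 27 stood apart, all higher, with a median log2 difference of 3.21. Oas3, a sensor enzyme for viral RNA, stood at 103 to 176 CPM (median 127) against 3.995, 2.66 and 0.629. Rsad2, which encodes the antiviral protein viperin, stood at 76.3 to 507 CPM (median 160.1) against 6.87, 3.07 and 5.27. All 6 values of each gene lay above all 3, and the log2 differences were 5.89 (SE 0.45) and 5.25 (SE 0.69). Ifit2 and Ifi44, further antiviral effectors, differed by 4.95 and 4.19. Irf9, Stat2, Mx2, Ifi27 and Ifi35 did not stand apart. Leaving out any 1 liver gave 27 to 29.

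Genes induced by interferon gamma were also higher, 14 of 23, with 1 lower and a median of 2.04. Cxcl10, a chemokine that draws in T cells, stood at 7.65 to 119 CPM (median 42.4) against 1.998, 1.41 and 1.73, a log2 difference of 4.74 (SE 0.91). Gbp2, a GTPase that attacks intracellular microbes, differed by 3.99 (SE 0.23). The 1 that was lower was the chemokine gene Cxcl11, named after its value was seen. The interferon genes themselves were hardly measured: 9 of the 17 listed ligands and receptors did not reach the count filter, and all 9 were ligands. Of the 8 receptors and kinases that did, 4 stood apart higher, namely Ifngr1, Ifngr2, Jak1 and Jak2, at log2 differences of 1.76, 1.11, 1.004 and 1.04. Without number 2 at ZT18, 2 of the 8 did.

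The interferon-stimulated response element, the site that IRF9 and other interferon factors bind, was searched as GAAA followed after any 2 bases by a second GAAA. It was present in the promoter window of 12 of 22 type I genes found in the table (54.5%) and of 11 of 18 interferon gamma genes (61.1%). Of all windows 3.44% held it, and of all genes 3.99%, as did 1 of 25 mitosis genes. No expression value entered this search either. Promoters of Isg15, Oas3 and Rsad2 are shown as those of interferon genes described here. They lie on the minus strand at chr4:156200819-156201068, chr5:120777660-120777909 and chr12:26456453-26456702 and cover the 250 bases before each start in GRCm38.p6, with the matches in capitals.
Isg15: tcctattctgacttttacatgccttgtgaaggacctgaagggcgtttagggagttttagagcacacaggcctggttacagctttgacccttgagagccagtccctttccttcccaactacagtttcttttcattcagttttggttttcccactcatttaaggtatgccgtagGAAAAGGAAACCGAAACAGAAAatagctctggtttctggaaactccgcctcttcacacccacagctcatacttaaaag
Oas3: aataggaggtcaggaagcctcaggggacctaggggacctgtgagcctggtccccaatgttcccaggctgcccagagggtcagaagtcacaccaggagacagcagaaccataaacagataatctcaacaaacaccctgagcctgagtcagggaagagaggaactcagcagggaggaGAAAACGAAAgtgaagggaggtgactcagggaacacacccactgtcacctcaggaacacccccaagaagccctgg
Rsad2: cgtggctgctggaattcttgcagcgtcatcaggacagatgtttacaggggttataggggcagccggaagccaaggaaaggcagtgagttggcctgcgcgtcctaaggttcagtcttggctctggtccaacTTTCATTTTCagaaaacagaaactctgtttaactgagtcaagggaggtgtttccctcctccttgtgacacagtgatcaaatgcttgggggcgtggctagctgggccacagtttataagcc
The Isg15 stretch holds 3 overlapping matches 78, 72 and 66 bases before the start. Oas3 holds 1, and Rsad2 holds 1 on the opposite strand, so that its capitals read TTTCATTTTC.

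Chemokines that recruit monocytes were nearly absent from the 3 livers and present in the 6. Ccl2, the main ligand of the monocyte receptor CCR2, stood at 6.96 to 51.4 CPM (median 30.9) against 0.312, 0 and 0.0787, a log2 difference of 7.75 (SE 1.07). Ccl12, a second ligand of that receptor, gave 1051 counts in the 6 livers and 1 in the 3, a CPM ratio of 326 with a counting interval of 58.5 to 12904. Ccl7 and the B cell chemokine Cxcl13 differed by 7.13 and 6.33. Of 20 cytokine and chemokine genes tested, 12 stood apart, all higher, with a median of 2.34. None of these chemokines overlapped between the 2 sets of livers.

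Genes of endotoxin sensing and NF-kB signalling, a list of sensors, signalling members and brakes, were higher too, 10 of 20 with a median of 1.05. Tlr9, the receptor for bacterial DNA, stood at 7.27 to 23.6 CPM (median 13.5) against 0, 0 and 0.393. Tlr4, the endotoxin receptor, stood at 11.3 to 37.1 CPM (median 19.8) against 0.936, 1.33 and 0.551. Both were at or below 1.33 CPM in the 3 livers, and the log2 differences were 6.75 (SE 0.83) and 4.47 (SE 0.38). Tlr7, for single-stranded RNA, and Irak3, a brake on the same signalling, differed by 4.43 and 4.07.

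Antigen presentation differed less, with 5 of 18 genes apart, all higher, and a median of 0.74, led by H2-Q6 at 3.004 and H2-DMb1 at 2.03. These genes belong to families of near-identical members, so reads can be split between them. Acute phase proteins, which the liver secretes during inflammation, went both ways: 6 of 24 stood apart higher and 2 lower, with a median of 0.79. Saa1, serum amyloid A, stood at 1034 to 4949 CPM (median 2998) against 179, 956 and 97.3, a log2 difference of 3.35 (SE 0.74). The highest of the 3 was close to the lowest of the 6, so this gene just met the rule. Saa2, a near copy of it, differed by 3.91 (SE 0.85). The 2 that were lower were haptoglobin, Hp, and the interleukin receptor Il1r1, named after their values were seen.

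Genes of fetal liver were higher in part. Of 15 fetal and progenitor genes, 5 stood apart, all higher, with a median of 1.64, and 9 did without number 1 or number 3 at ZT14. Afp, the fetal serum protein, was not among the 5. Gpc3, a proteoglycan of fetal liver, stood at 8.24 to 21.3 CPM (median 10.9) against 0, 1.83 and 0.551, a log2 difference of 4.27 (SE 0.90). Igf2bp3, a fetal RNA-binding protein, stood at 4.27 to 9.91 CPM (median 6.97) against 0.250, 1.41 and 0, a difference of 3.95 (SE 0.75). Hmga1, a chromatin protein of dividing cells, differed by 3.73 (SE 0.60). The imprinted genes did not follow H19 as a group: of 14 tested, H19, Peg10 and Grb10 stood apart higher, Meg3 and Slc38a4 lower, and the median was -0.03. Of all genes 18% stood apart higher and 14% lower. Peg10 and Grb10 differed by 3.93 and 2.09. Without number 3 at ZT14, 5 imprinted genes were higher, and without number 3 at ZT18, 4 were lower. The sign of the imprinted median changed in 8 of the alternative settings.

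Hepatocyte genes were lower in the 6 livers. Of 20 hepatocyte markers 12 stood apart, all lower, with a median log2 difference of -1.81, while Alb, Apob, Ttr and Hnf4a were among the 8 that did not. Apoa2, an apolipoprotein of high-density lipoprotein, stood at 103 to 1979.9 CPM (median 693) against 12850, 17415 and 19282, a difference of -4.79 (SE 0.83). Serpina1c, an alpha-1 antitrypsin of a gene family with near-identical members, stood at 14.7 to 341 CPM (median 90.00) against 1884, 4023 and 3707, a difference of -5.05 (SE 0.79). Asgr1 and Asgr2, the subunits of the asialoglycoprotein receptor, differed by -3.70 and -3.44. Whether the lower share of hepatocyte RNA accounts for the other hepatic differences was not tested.

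Enzymes of both liver zones were lower. Of 16 genes of hepatocytes around the central vein 7 stood apart lower, with a median of -1.07, led by Cyp1a2, which oxidizes caffeine, at 6.52 to 156 CPM (median 34.8) against 679, 864 and 622 and a difference of -4.24 (SE 0.62). Of 16 genes of hepatocytes near the portal vein, 7 stood apart lower and 3 higher, with a median of -1.51, and 11 were lower without number 3 at ZT6. Pck1, the enzyme that commits to glucose synthesis, stood at 56.1 to 403 CPM (median 273) against 2361, 2765 and 2472, a difference of -3.46 (SE 0.56). Ctsc, a lysosomal protease that macrophages also express, was 1 of the 3 that were higher, at 4.18. Of 21 drug-metabolizing P450 genes 13 were apart lower and 2 higher, with a median of -1.86.

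Bile acid uptake and synthesis were lower in 11 of 20 genes and higher in 1, with a median of -1.60. Slc10a1, the main carrier of bile acids from blood into hepatocytes, stood at 5.16 to 86.4 CPM (median 32.1) against 418, 443 and 576, a difference of -3.90 (SE 0.73). Cyp7b1, an oxysterol hydroxylase, stood at 3.13 to 8.25 CPM (median 4.70) against 197, 136 and 195, a difference of -5.09 (SE 0.22). Neither gene overlapped, and in Cyp7b1 all 6 livers were at 8.25 CPM or less. Cyp7a1, the rate-limiting enzyme of bile acid synthesis, was not among the genes apart.

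Fatty acid oxidation was lower in 12 of 27 genes and higher in 1, with a median of -1.24. Fgf21, a hormone that hepatocytes release in fasting, stood at 0 to 0.644 CPM (median 0.259) against 11.2, 44.5 and 16.7, a difference of -6.39 (SE 0.88). Acaa1b, a peroxisomal thiolase, and Cyp4a10, an omega-hydroxylase, differed by -3.78 and -3.55. Amino acid breakdown and urea cycle genes were apart lower in 9 of 24 (14 without number 3 at ZT6) and higher in 1, with Otc, the urea cycle carbamoyltransferase, at -2.99. Nuclear subunits of oxidative phosphorylation were lower in 10 of 28 with a median of -0.79, and 11 of 13 mitochondrial genes were lower with a median of -3.21. These are the counts that make up the mitochondrial share given above.

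Glycolysis went the other way in enzymes that hepatocytes use little. Pkm, the pyruvate kinase of growing cells, stood at 119 to 299 CPM (median 212) against 12.2, 25.5 and 11.02, a difference of 3.65 (SE 0.44). Pfkfb3, which speeds glycolysis, stood at 36.7 to 296 CPM (median 121) against 8.93, 4.57 and 1.81, a difference of 4.80 (SE 0.67). Hk2, a hexokinase that rests in normal liver, differed by 3.56 (SE 0.36), and these were the 3 genes apart higher of 20 on glucose, beside 8 lower. Acly, which makes acetyl-CoA for lipid synthesis, was higher by 4.14 (SE 0.70), while Mlxipl, which encodes the glucose-sensing regulator ChREBP, was lower, at -3.33. Stress genes included Atf3 at 5.07 and Hmox1, heme oxygenase, at 3.22.

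Male-biased liver genes were lower in the 6 livers without exception. All 20 stood apart, with a median log2 difference of -5.45. They also did in each of the 9 fits that left out 1 liver, where no overlap is easier to meet. Hepatic sex bias in mice is known to follow the pulses of growth hormone, which act through STAT5B. Mup7, a major urinary protein of a family with near-identical members, ran from 0 to 3.97 CPM in the 6 livers against 2762, 1581 and 1871 in the other 3, a log2 difference of -13.50 (SE 1.37). Hsd3b5, a male-specific steroid enzyme, was between 0 and 0.0437 CPM in the 6 against 156, 48.4 and 139.8. Elovl3, a fatty acid elongase, stood at 0.343 to 3.78 CPM (median 0.862) against 413, 561 and 439.7, a difference of -8.40 (SE 0.81). The 6 and the 3 lay far apart in each of these genes.

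Female-biased liver genes were higher in 8 of 18 and lower in 2, with a median of 1.11. Cyp2b13, a female-specific P450, stood at 36.6 to 86.6 CPM (median 54.4) in the 6 livers and at 0 in the 3, so that it was at least 797-fold higher with a floor of 3 counts over the 3 livers. Sult2a1, a steroid sulfotransferase, stood at 182 to 867 CPM (median 508) against 0, 0.0831 and 0.629, a log2 difference of 11.24 (SE 0.85). A1bg, a plasma protein with female bias, was at least 215-fold higher, although its values in the 6 spread from 0.883 to 36.9 CPM. The Cyp2b and Sult2a genes have near-identical copies. The liver that held Xist had the highest female-biased mean log2 level of the 6, 3.50, and the other 5 lay between 1.62 and 2.74, all above the 3, whose highest was 0.27. Xist is itself a member of this list and raises the 3.50, so nothing is read from that rank.

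Some targets of growth hormone were lower as well. Igf1, the growth factor that growth hormone induces in liver, stood at 92.9 to 193 CPM (median 138) against 801, 1120.4 and 971, a log2 difference of -2.82 (SE 0.27). Igfals, which carries IGF1 in blood, stood at 1.88 to 28.8 CPM (median 17.04) against 114, 107 and 213, a difference of -3.20 (SE 0.67). Cish, a feedback inhibitor that STAT5 switches on, differed by -3.02 (SE 0.60). In all 5 of 15 genes of the axis stood apart, all lower, and Ghr, the receptor, was not among them. The median of the 15 was -1.11, where that of the hepatocyte markers was -1.81. Whether the axis differed beyond the lower share of hepatocyte RNA was not tested.

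**Figure D2:**
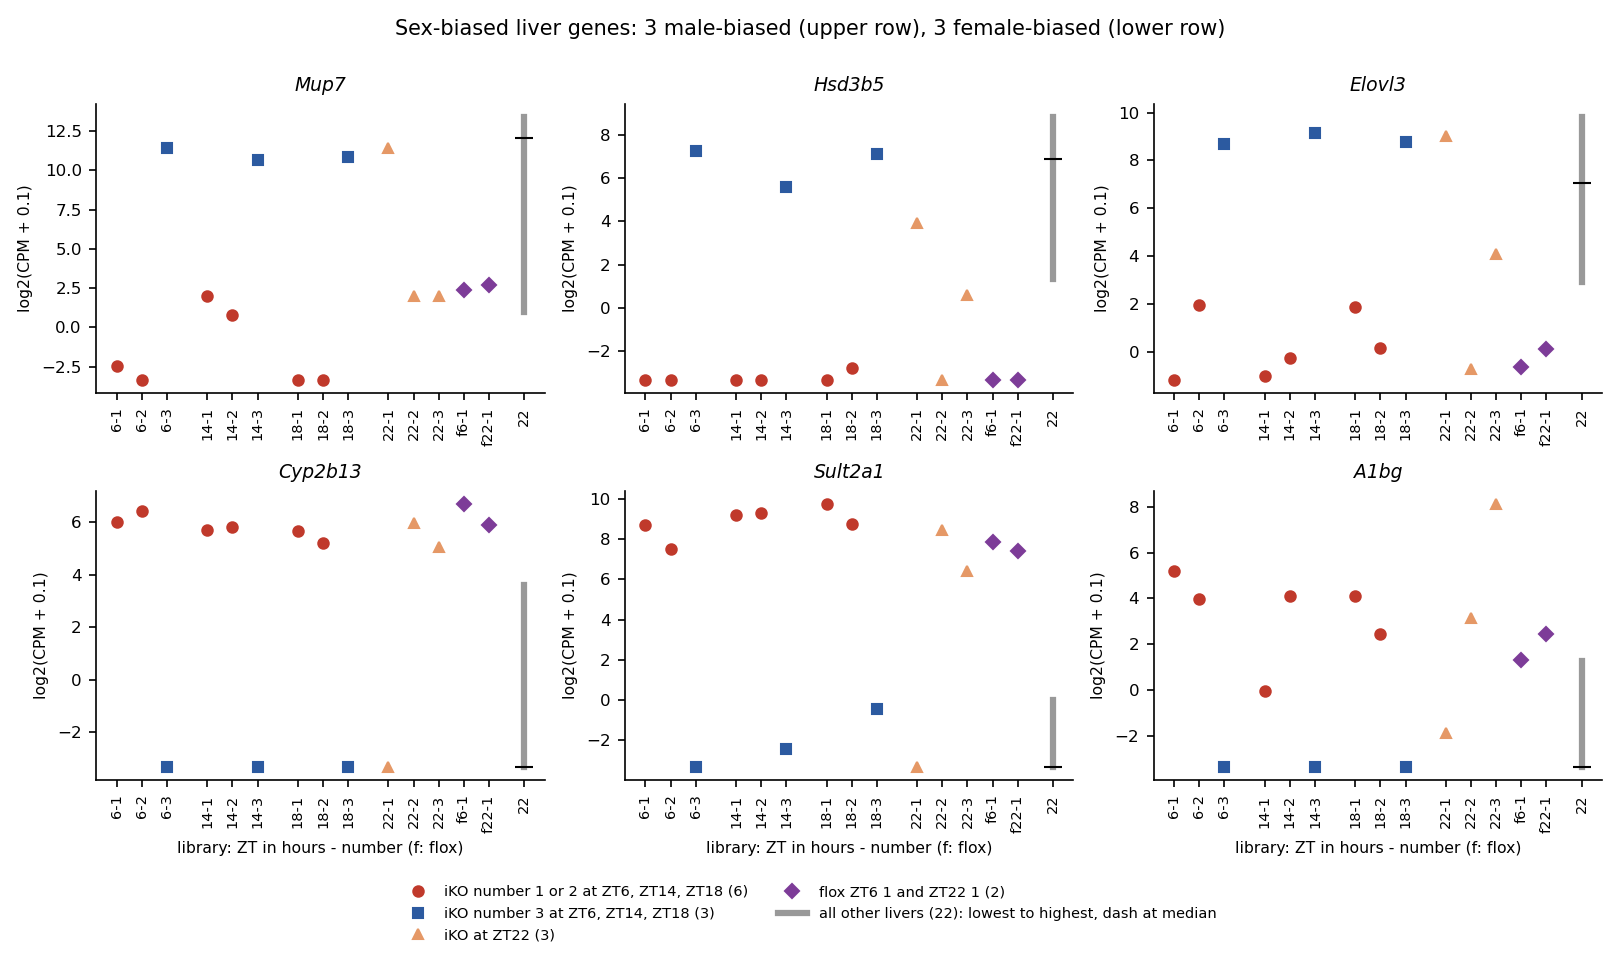
Levels of 3 male-biased genes (Mup7, Hsd3b5, Elovl3) and 3 female-biased genes (Cyp2b13, Sult2a1, A1bg) in single liver libraries, as log2 of CPM plus 0.1, with the libraries and colours of the marker plot. Male-biased genes are low and female-biased genes high in the 6, with Cyp2b13 at 36.6 CPM or more in the 6 and at 0 in the 3.

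Outside the lists, the largest difference of a gene at 0 in the 3 livers was that of Retnla, a secreted product of alternatively activated macrophages. It was at least 887-fold higher over the 6, but ran from 0.883 CPM in number 1 at ZT14 to 223 in number 2 at ZT18. Cdhr2, a brush-border cadherin, and Sct, which encodes the gut hormone secretin, were at least 132-fold higher and at least 95.1-fold higher in the same way. Sirpb1c, a receptor of myeloid cells, was at least 114-fold higher and far more even, at 5.59 to 10.7 CPM (median 8.98). The largest lower genes after Mup7 and Hsd3b5 included Ces3b, a carboxylesterase, at -10.99 and Selenbp2, a selenium-binding protein, at -9.34.

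Counts for the other cells of liver depended on single libraries. Of 18 stellate cell and fibroblast markers 1 stood apart higher and 2 lower, with a median of 0.10, and 7 were higher without number 3 at ZT14. Of 16 endothelial markers 4 stood apart higher, with a median of 0.30, led by the junction protein gene Cdh5 at 60.5 to 122 CPM (median 105) against 11.2, 19.8 and 7.003, a difference of 3.02 (SE 0.34). Without number 3 at ZT14, 7 endothelial markers were higher, and without number 3 at ZT18, 1 was lower. Of 9 bile duct markers 1 stood apart, lower in the 6, and 1 was also higher without number 1 or 3 at ZT14 or number 2 at ZT18. The 19 circadian clock genes had 1 member apart, also lower, and a median of -0.54. Lower clock genes numbered 4 without number 1 at ZT6, 2 without number 1 at ZT18 and 6 without number 3 at ZT18.

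Cholesterol genes differed in opposite directions at different times of day. Cholesterol synthesis and uptake genes, 23 in number, had a median log2 difference of -1.98 at ZT6, 1.76 at ZT14 and -1.21 at ZT18, and none stood apart over the 3 times. Insig1, the sterol sensor, showed this plainly. At ZT14 it stood at 456 and 646 CPM in the 2 livers of the 6 and at 92.7 in the other. At ZT6 the values were 27.4 and 18.7 against 209.5, and at ZT18 42.1 and 13.2 against 126. With 1 liver of the 3 at each time, a difference at a time has no replicate check.

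**Figure D3:**
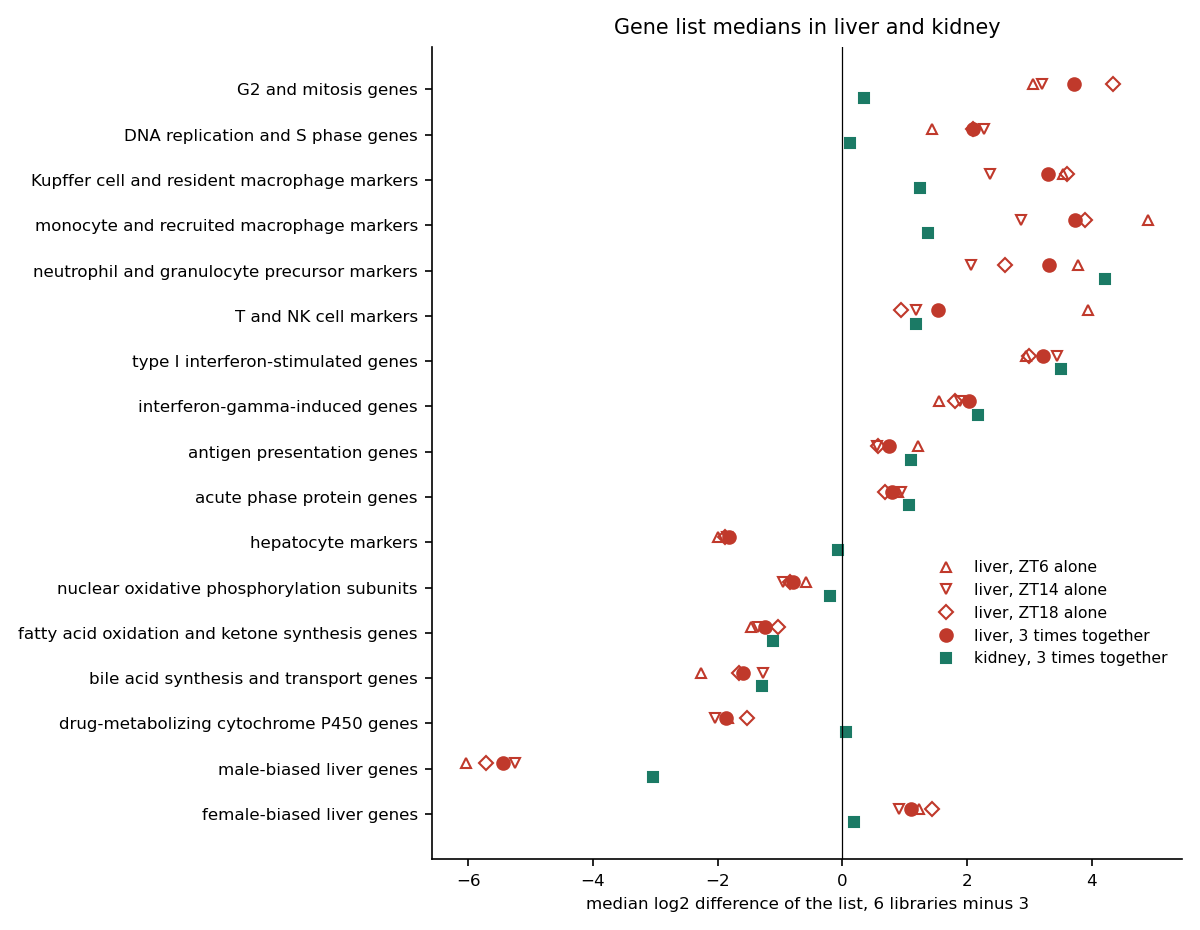
Median log2 difference of 17 gene lists, 6 libraries minus 3, for liver at each time (open red symbols), liver over the 3 times (filled red circles) and kidney over the 3 times (green squares). In liver the mitosis (3.72), Kupffer cell (3.29) and interferon (3.21) lists lie to the right and male-biased genes (-5.45) to the left, while in kidney the interferon list lies at 3.50 and the mitosis list at 0.35.

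Livers outside the chosen 9 were not used to choose them, and 5 of these 27 looked like the 6. These 5 were known from earlier results of the same data to be high in the same genes, so their values are a description. Mki67 stood at 61.9, 40.9 and 41.2 CPM in the 3 Bmal1-iKO livers at ZT22 and at 62.1 and 48.8 in Bmal1-flox number 1 at ZT6 and at ZT22. In the remaining 22 livers it ran from 0.597 to 5.98. Adgre1 stood at 166, 103 and 122 and at 318 and 381 in the same 5, against 1.56 to 67.7 in the 22. Each of the 5 thus lay above all 22 for both genes, and 2 of them are of the control genotype. Of 155 named genes that stood apart, the number lying beyond the 3 livers on the side of the 6 was 154 (99.4%) in the flox liver at ZT6 and 155 (100%) in that at ZT22. In the iKO livers at ZT22 numbers 1, 2 and 3 it was 133 (85.8%), 148 (95.5%) and 140 (90.3%). These genes were named mostly for large differences between the 6 and the 3. The share was not computed for the other 22 livers or over all genes. Number 3 at ZT22 also went against its label of male, with 387 CPM of Xist and 0 of Ddx3y in liver, and its mean log2 level was 4.07 on male-biased and 3.69 on female-biased genes. The female-biased mean includes Xist. The kidney library of that number held 297 CPM of Xist and the fat library 16.1, with 69.8 of Ddx3y in fat.

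In these other livers the gene groups did not always differ together. Number 1 of the iKO livers at ZT22 had the highest mitosis mean of all 36, a log2 level of 3.43, and yet kept a male-biased mean of 7.01, with Mup7 at 2772 CPM and Cyp2b13 at 0. The mean of the 6 on male-biased genes was 1.97 to 2.52, and that of the 3 was 7.64 to 8.55. Flox numbers 2 and 3 at ZT22 stood lower on male-biased genes, at 4.30 and 5.53, with mitosis means of 0.06 and -0.55. Mitochondrial genes took 3.88% to 6.45% of counts in the iKO livers at ZT22 and 2.69% to 3.19% in the 2 flox livers, against 4.74% to 30.0% in the 22. The part of RNA quality, of cell makeup and of individual mice in these patterns was not tested.

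**Figure D4:**
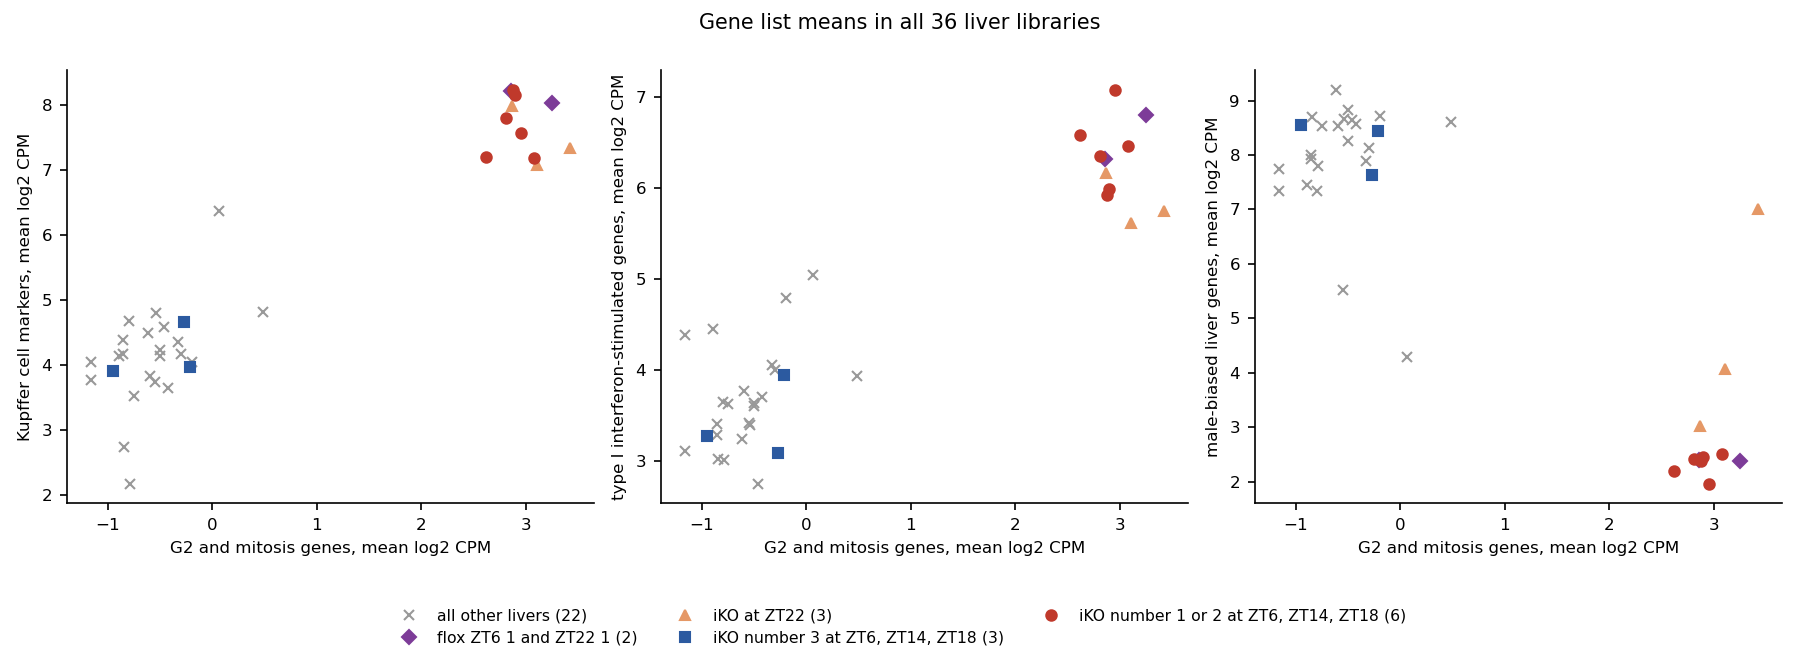
Mean log2 CPM of Kupffer cell, type I interferon and male-biased genes against that of G2 and mitosis genes in all 36 livers, 1 point per library, with the 6 in red, the other 3 in blue, the iKO livers at ZT22 in orange, 2 flox livers in purple and the other 22 as grey crosses. The 6 lie at 2.62 to 3.08 on mitosis genes, near the orange and purple points, and the 3 lie at -0.95 to -0.21, within the range of the grey crosses.

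Kidneys of the same genotype, times and numbers were not used in the choice, so their 6 against 3 comparison was tested. With edgeR's quasi-likelihood test and Benjamini-Hochberg adjustment over 16395 genes, 3362 passed an adjusted p of 0.05 (20.5%), 1537 of them higher (9.37%) and 1825 lower (11.1%), while 34.7% had an unadjusted p under 0.05. Without the kidney number 1 at ZT18, which held Xist, 1296 were higher and 1652 lower. Without number 3 at ZT18 the counts were 562 and 872, and without number 3 at ZT6, 668 and 1054. High interferon genes in these kidneys were known from earlier work on the same data, so they are no independent support. If same-numbered liver and kidney libraries share a mouse, choosing livers by macrophage genes may also carry into the kidney p-values, those of macrophage genes above all.

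Interferon genes rose throughout in kidney. All 32 type I interferon-stimulated genes passed the test, all higher, with a median log2 difference of 3.50 against 0.04 for all genes, and 30 to 32 passed when any 1 kidney was left out. Isg15, a ubiquitin-like antiviral protein, stood at 38.1 to 194 CPM (median 99.4) in the 6 kidneys against 2.79, 1.96 and 2.68 at ZT6, ZT14 and ZT18 in the 3. Irf7, the factor that amplifies interferon production, stood at 138 to 749.6 CPM (median 438) against 14.9, 13.3 and 14.9. All 6 kidneys lay above all 3 in both genes. The log2 differences were 5.38 (SE 0.65) and 4.92 (SE 0.47), with edgeR adjusted p-values of 0.00174 and 0.000431, and the highest over 14 alternatives were 0.0158 and 0.00730. Mx1 and Ifit1 rose by 4.99 and 4.75 on the log2 scale, with edgeR adjusted p-values of 0.00165 and 0.00296. Of 23 interferon gamma genes 18 rose and none fell, and of 17 antigen presentation genes 13 rose.

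The proliferation seen in liver was not called in kidney. Mki67 stood at 1.90 to 7.23 CPM (median 5.15) against 1.57, 5.07 and 1.20, its groups overlapped, and the log2 difference of 1.11 (SE 0.54) had an edgeR adjusted p of 0.177. Top2a had a difference of 0.96 (SE 0.76) with an edgeR adjusted p of 0.403. Of 28 mitosis genes 21 had positive and 7 negative differences, with a median of 0.35 against 0.04 for all genes. None was called higher and 1 was called lower. The lower 1 was Nusap1, a spindle protein, with a log2 difference of -1.44 (SE 0.29) and an edgeR adjusted p of 0.00796. Of 29 S phase genes none rose and 1 fell. H19 had a difference of -2.04 (SE 1.70) and an edgeR adjusted p of 0.432. Without number 3 at ZT14, 2 mitosis genes rose, and without number 3 at ZT6, 1 S phase gene did. Whether liver and kidney differ in these genes was not tested.

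Macrophage genes rose in kidney in part. Of 13 Kupffer and resident macrophage markers 7 rose and none fell, and of 17 monocyte markers 9 rose. Without number 2 or number 3 at ZT6, 4 of the resident macrophage markers rose, and without number 3 at ZT18, 5 of the monocyte markers. C1qa, a subunit of complement C1q made by macrophages, stood at 19.8 to 66.6 CPM (median 49.1) against 8.01, 13.4 and 15.1, a difference of 1.97 (SE 0.35) with an edgeR adjusted p of 0.00605. C1qc rose by 1.86 with an edgeR adjusted p of 0.00107. Adgre1 stood at 3.29 to 10.6 CPM (median 6.73) against 3.13, 3.38 and 2.11, overlapped, and rose by 1.24 (SE 0.38) with an edgeR adjusted p of 0.0432, a call lost in 8 of 14 alternatives with adjusted p up to 0.203. Of 7 neutrophil markers 6 rose, and 3 without number 3 at ZT6. S100a8, an alarmin of neutrophils, gave 764 counts in the 6 kidneys and 2 in the 3, a CPM ratio of 169 with a counting interval of 46.7 to 1401. Ly6c2, Chil3 and Ccl12 passed the edgeR test, and each lost its call in 3 of 14 alternatives.

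Several sex-biased transport and steroid genes fell in kidney. Of 10 male-biased liver genes tested there 7 fell and 1 rose, with a median of -3.03. Of 11 female-biased liver genes 2 fell and 1 rose, with a median of 0.19. Cyp7b1 stood at 4.21 to 7.72 CPM (median 6.22) against 512, 183 and 307, and fell, with a log2 difference of -5.72 (SE 0.15) and an edgeR adjusted p of 8.66e-08. Slco1a1, an organic anion carrier, stood at 0 to 0.254 CPM (median 0.141) against 545, 178 and 191, with an edgeR adjusted p of 1.9e-06. Cyp2a4, a testosterone hydroxylase on the female-biased list, stood at 0.328 to 1.97 CPM (median 0.640) against 215, 119.9 and 334, with an edgeR adjusted p of 6.12e-06. Acsm3, a medium-chain acyl-CoA synthetase, fell, with a difference of -9.12 (SE 0.33) and an edgeR adjusted p of 1.9e-06. Serpina6, the plasma carrier of corticosteroids, rose most: it stood at 357 to 2891 CPM (median 1265) against 0, 0.0529 and 0, a ratio of 74815 with a counting interval of 13428 to 2955100, since the 3 kidneys held 1 count in all.

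The growth hormone and prolactin receptors moved in opposite directions in kidney. Ghr stood at 153 to 273 CPM (median 222) against 947, 1015 and 677 and fell, with a difference of -2.02 (SE 0.20) and an edgeR adjusted p of 0.000349. Prlr, the prolactin receptor, stood at 200.1 to 330.2 CPM (median 249.5) against 52.5, 99.1 and 44.3 and rose, with a difference of 2.03 (SE 0.21) and an edgeR adjusted p of 0.00037, a call lost in 1 of 14 alternatives. In fatty acid oxidation 16 of 26 genes fell and none rose, with a median of -1.11, and 11 to 17 fell when any 1 kidney was left out. Kidney tubule and podocyte markers had a mean log2 level of 9.16 to 9.94 in the 6 and 9.67 to 9.73 in the 3, and mitochondrial genes took 6.70% to 14.8% and 8.42% to 12.4% of counts. Of these 10 markers 3 rose, the water channel Aqp2 among them, and 4 fell, among them the proximal tubule genes Slc34a1 and Lrp2. Without 1 kidney the markers that fell numbered 1 to 5, with 1 when any number at ZT6 was left out and 2 without number 2 or 3 at ZT18. Of 19 stellate cell and fibroblast markers 7 rose and of 15 endothelial markers 7 rose, and none of either fell. Without number 3 at ZT14, 11 of each rose, and without number 3 at ZT6 or ZT18, 4 stellate markers and 1 endothelial marker. The part of cell makeup in the kidney differences was not tested.

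**Figure D5:**
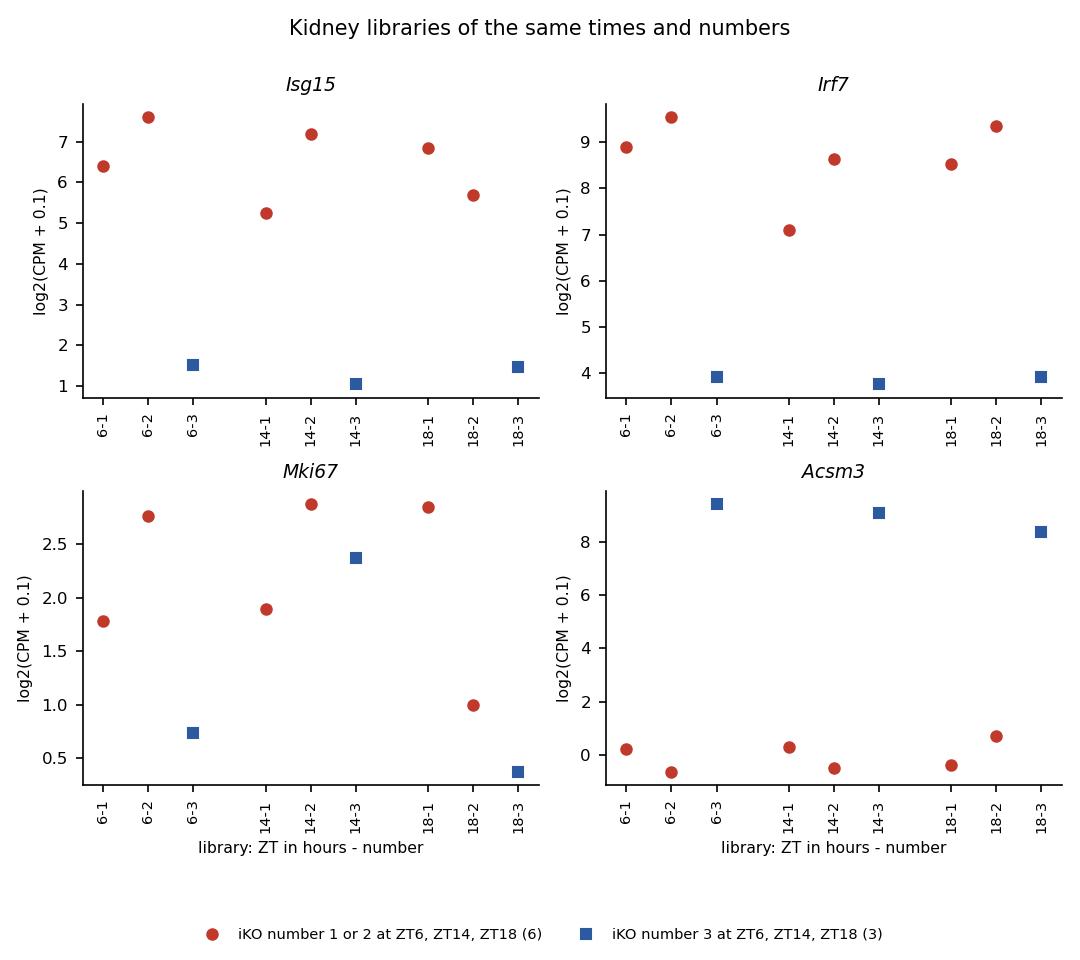
Levels of Isg15, Irf7, Mki67 and Acsm3 in the 9 Bmal1-iKO kidneys at ZT6, ZT14 and ZT18, as log2 of CPM plus 0.1, with numbers 1 and 2 in red and number 3 in blue. Isg15 and Irf7 are higher in all 6 than in any of the 3, Acsm3 is lower in all 6, and Mki67 overlaps.

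Among 14061 genes in both fits, 2446 stood apart higher in liver and 1370 rose in kidney, and 554 did both, which is 22.6% of the liver genes and 40.4% of the kidney genes. Lower in both were 326, which is 17.6% of 1848 liver genes and 20.3% of 1609 kidney genes. Apart higher in liver and called lower in kidney were 185, and the reverse held for 117. The liver and kidney libraries share no sample, but same-numbered ones may come from the same mouse.

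In white adipose tissue of the same numbers almost no gene passed the test. Of 18745 genes tested with edgeR, 1 passed the adjusted p of 0.05 (0.00533%), while 3957 (21.1%) had an unadjusted p under 0.05 and DESeq2 called 1823 higher and 1448 lower. The 1 gene was Smpx, a muscle protein, at 5.37 to 85.4 CPM (median 37.4) against 0.0639, 0.0437 and 0, with an edgeR adjusted p of 0.0196, and the muscle genes Myh4 and Ckm also did not overlap, at 15.5 to 8245 CPM (median 382) and 4.76 to 3246 CPM (median 361) in the 6 against 0, 0 and 0.273 and 0.128, 0.569 and 0.984. Markers of pancreas, kidney, fat, muscle and gut had a mean log2 level of 0.82 to 3.08 in the 6 and -0.39 to 0.42 in the 3. This list includes the fat genes Adipoq, Plin1 and Cfd, so in fat its mean does not measure other tissues alone. Adipocyte markers had a median log2 difference of 1.63 and bile duct markers of -2.17, with none called in either list. The part of tissue makeup in the fat differences was not tested. Of 32 type I interferon genes 31 had positive differences and none was called, with a median of 2.20. Ifit3, an antiviral effector, stood at 22.8 to 393 CPM (median 232) against 6.26, 7.74 and 17.1, a log2 difference of 4.39 (SE 1.03) with an edgeR adjusted p of 0.117. Mki67 stood at 1.89 to 24.6 CPM (median 17.7) against 29.4, 42.2 and 8.31, a difference of -0.59 (SE 0.70) with an edgeR adjusted p of 0.682. The spread between fat libraries was wide, with a biological coefficient of variation of 0.668 against 0.343 in liver and 0.244 in kidney.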

How the data were processed

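RNA was extracted with Trizol, made into libraries with a NEBNext Ultra kit and sequenced on a HiSeq instrument, per the labels' protocols. The authors deposited 1 table of raw read counts per gene, and the submitters' processing notes name HISAT2 2.0.4, featureCounts 1.5.0-p3, DESeq2 1.16.1 and the build GRCm38 (mm10). For their order, the annotation and the strand setting, nothing is given in the sources used here. Genes that overlap, or lie antisense to each other, may therefore share reads. Of 52083 gene IDs matched to the GRCm38 reference, 1457 (2.80%) had the same start and end in the table, while 51516 (98.9%) had the same span, so no deposited coordinates are printed. All columns matched a sample's title, leaving 0 unused. Pairs of libraries were compared only within the iKO groups at ZT6, ZT14 and ZT18 of each tissue. No 2 libraries of such a group agreed within sampling noise (lowest chi-square per degree of freedom 23.9).

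The members and gene lists were chosen with earlier results of these data known. Counts of the 9 libraries of a tissue were fitted with edgeR 4.0.16 in R 4.3.3 (quasi-likelihood, robust, TMM scaling, filterByExpr) with time as a covariate, giving log2 differences, their SE and, in kidney and fat only, Benjamini-Hochberg adjusted p-values over all genes. The scripts were tested on simulated data. Each SE is the absolute log2 difference divided by the square root of the F statistic of the fit. In liver the SE does not allow for the choice of the livers by measured values, and no test is read from it. CPM values are TMM-scaled, and list means use log2 CPM with a prior count of 2. Counting intervals are 95% and cover counting error only. Total counts were 16446000 to 22123000 in the 9 kidneys and 14103000 to 23350000 in the 9 fat libraries.

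Genes were named by rule: the 4 markers, Arntl, the 10 largest differences each way with mean log2 CPM at or above 1, no overlap (kidney and fat: called) and the same sign at all 3 times, and up to 4 members of each list with the largest absolute difference at that level. Genes named outside the rule were named after their values were seen. Alternatives were DESeq2 1.42.0 or its size factors, other filters and folds, a fit of all 36 libraries and leaving out each library. List counts without each library were added after the data were seen. Promoters are from RefSeq (GRCm38.p6). Results for a few genes are not reported here.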

Additional observations from a re-analysis of the deposited data

Results flagged for a closer look

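A value was singled out where 1 of 6 libraries lay far from the other 5 by Dixon's criterion, which chance meets in about 1 of 20 groups. This held for 7 of 60 values checked. The mean log2 level of Y-linked genes in number 1 at ZT18 was -2.97 in liver, where the other 5 lay at 4.33 to 4.68, -2.89 in kidney (others 4.51 to 4.90) and -3.24 in white fat (others 4.79 to 5.67). Arntl in kidney number 1 at ZT6 was 2.19 CPM, and the other 5 kidneys lay at 14.6 to 40.2. In white fat number 2 at ZT18 stood alone in 3 values: mitochondrial genes took 28.9% of counts (others 3.02% to 7.72%), the male-biased mean was 0.22 (others -1.38 to -0.87) and Mki67 was 1.89 CPM (others 9.65 to 24.6). The male-biased list is of liver genes. The same fat library also had the highest hepatocyte marker mean, 3.58 (others -0.68 to 1.06), which the criterion did not flag.

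Among named genes, 3 differed in opposite directions in liver and kidney with no overlap of the 6 and the 3 in either tissue, and the difference between the tissues was not tested. Acsm3 had a log2 difference of 1.19 in liver and -9.12 in kidney, Nusap1 3.69 and -1.44, and Prlr -1.11 and 2.03.

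Liver libraries outside the 9 carried the marker genes. Mki67 stood at 61.9, 40.9 and 41.2 CPM in iKO numbers 1, 2 and 3 at ZT22 and at 62.1 and 48.8 in flox number 1 at ZT6 and ZT22, and Adgre1 at 166, 103, 122, 318 and 381. The medians of the other 22 livers were 2.04 and 4.43.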

How the results depend on the processing

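No paired analysis was possible because the comparison is between the replicate numbers themselves. In liver, a 4-fold threshold left 1628 genes apart higher and 899 lower. Leaving out each library gave 2806 to 3211 higher and 2217 to 2494 lower, with no overlap easier to meet among fewer livers. Of 3331 alternative values of named liver genes 3004 lay within 1 residual SD of the reported one, and of 672 list medians 625. In kidney the counts without 1 library ran from 562 to 1741 higher and 872 to 1951 lower, with 937 higher without number 2 at ZT6 and 1007 without number 2 at ZT14. DESeq2's Wald test called 2100 and 2185. Of 123 named kidney calls, 45 were lost without number 3 at ZT6 and 42 without number 3 at ZT18. The cause was not tested. In white fat DESeq2's Wald test called 1823 higher and 1448 lower, edgeR without a filter 526 and 391, the fit of all 36 libraries 0 higher, and leaving out each library 0 to 2 higher and 0 to 32 lower. No value reversed a call. The 3 libraries numbered 3, 1 per time, limit every difference.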
